A study of Mus musculus with 6 samples.

Results

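The dystrophin-glycoprotein complex was examined at the RNA level in muscle stem cells (MuSCs, the Pax7-expressing cells beneath the basal lamina of the muscle fibre that rebuild muscle after injury). The genes were those of the deposited table whose symbol was Dmd, Utrn, Dag1, Sgca, Sgcb, Sgcd, Sgce, Sntb1 or Sspn, which gave 9 genes of 22706 in all. RNA-seq had been run on freshly isolated MuSCs from 3 groups of mice with 2 libraries each, 6 libraries in all. The control mice were wild type. The mdx mice carried the Dmd allele of that name, whose premature stop codon removes full-length dystrophin. The Sirt6mKO/mdx mice carried the same Dmd allele and had in addition lost the deacetylase gene Sirt6, through floxed Sirt6 alleles and a Cre recombinase expressed from Pax7. This Cre is active from development onwards in the Pax7 lineage, so fibres formed from these cells can lack Sirt6 as well. The labels give the strain C57BL/6 for every library, whereas the methods of the study name C57BL/10ScSn-Dmdmdx/J mice as the origin of the mdx allele. The cells were taken from limb and trunk muscle by sorting on surface antigens or on a reporter, and which of these was used for each library was not given in the sources used here. Age, sex and batch are not in the labels, and legends of the study that show these RNA-seq data describe adult male mice.

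The complex is a bridge across the muscle cell membrane. Dystrophin binds actin inside the cell and the tail of β-dystroglycan at the membrane, and α-dystroglycan binds laminins outside once its sugar chains have been built. Sarcoglycans and sarcospan hold dystroglycan in place, and syntrophins and dystrobrevin attach signalling proteins to dystrophin. Utrophin, encoded by Utrn, resembles dystrophin and can take its place in the complex. In MuSCs, dystrophin is known to help place the polarity kinase Mark2 to a side of the cell, which bears on asymmetric division. The study compared mdx with control MuSCs to ask how dystrophic cells differ, and Sirt6mKO/mdx with mdx to ask what loss of Sirt6 adds.

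The values are read counts divided by a size factor for each library and rounded, called normalized read counts here. A difference between groups is a log2 fold change of value + 1 with its standard error (SE) and 95% interval, from a limma fit over 15915 genes with a mean of at least 5. A gene is called when its Benjamini-Hochberg adjusted p over all of those genes is at most 0.05 and its log2 fold change is at least 1 in size. All 9 genes reached the minimum mean. The approximate number of reads assigned to genes was between 4397765 and 9744324 per library. The 10 most abundant genes took 30.04% and 32.65% of the values in the Sirt6mKO/mdx libraries and 11.75% to 22.92% in the others. The Sirt6 gene itself had normalized read counts of 41 and 32 (control), 33 and 40 (mdx) and 37 and 30 (Sirt6mKO/mdx), so the gene-level value did not show the deletion, which removes only some of its exons. Xist, transcribed from the inactive X chromosome, stood at 16772 and 12950 in control and between 7 and 34 in the other 4 libraries, while the Y-linked Ddx3y stood at 3 and 8 in control and between 1024 and 1767 in the others. The Xist and Ddx3y values of the control libraries go against the male sex given in those legends. Control and the other groups therefore differed in sex-linked RNA as well as in genotype, and these cannot be told apart in either comparison with control.

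RefSeq start sites bear on what a value of a gene pools. Of the 9 genes, 7 had at least 1 start in the RefSeq table (GRCm38.p6), and Sgce and Sntb1 had no entry. Dmd has a start for full-length transcripts at the 5′ end of the gene and another 2099425 bases downstream, from which a short dystrophin is made, and a count over the whole gene cannot separate them. Dag1 and Sspn are shown because both were called lower in Sirt6mKO/mdx than in mdx. Each sequence holds the 250 bases before a start, read 5′ to 3′ on the strand of the gene. Capitals mark a GC box (GGGCGG on either strand, the motif of Sp factors) or an AP-1 motif (TGANTCA, which reads the same on both strands apart from N). The first is of the full-length Dmd start (chrX:82948620-82948869, plus strand) and the next of the downstream Dmd start (chrX:85048045-85048294, plus strand).
Dmd, full-length start: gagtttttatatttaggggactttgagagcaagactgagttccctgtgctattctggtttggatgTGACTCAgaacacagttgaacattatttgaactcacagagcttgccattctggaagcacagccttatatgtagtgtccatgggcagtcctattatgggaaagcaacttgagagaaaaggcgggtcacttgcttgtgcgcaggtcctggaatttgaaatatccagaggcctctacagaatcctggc
Dmd, downstream start: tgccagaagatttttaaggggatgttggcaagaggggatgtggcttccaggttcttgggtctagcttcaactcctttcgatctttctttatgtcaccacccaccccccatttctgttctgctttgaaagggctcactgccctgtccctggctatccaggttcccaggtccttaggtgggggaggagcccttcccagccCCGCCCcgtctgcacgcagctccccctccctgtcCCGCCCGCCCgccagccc
The Dag1 sequence lies before the outer of its listed starts (chr9:108263959-108264208, minus strand).
Dag1: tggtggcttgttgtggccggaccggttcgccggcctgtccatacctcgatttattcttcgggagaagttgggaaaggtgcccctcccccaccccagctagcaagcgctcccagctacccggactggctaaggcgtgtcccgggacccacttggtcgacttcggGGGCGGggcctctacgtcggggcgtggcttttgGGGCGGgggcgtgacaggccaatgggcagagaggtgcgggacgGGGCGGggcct
The Sspn sequences lie before its upstream start (chr6:145931623-145931872, plus strand) and its downstream start (chr6:145933872-145934121, plus strand). The gene as counted starts at chr6:145931641, so most of the upstream sequence and all of the downstream sequence lie within it.
Sspn, upstream start: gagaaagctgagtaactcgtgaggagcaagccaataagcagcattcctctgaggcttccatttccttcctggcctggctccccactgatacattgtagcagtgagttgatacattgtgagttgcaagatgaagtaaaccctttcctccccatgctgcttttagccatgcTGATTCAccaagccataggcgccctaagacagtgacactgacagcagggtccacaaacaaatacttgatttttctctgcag
Sspn, downstream start: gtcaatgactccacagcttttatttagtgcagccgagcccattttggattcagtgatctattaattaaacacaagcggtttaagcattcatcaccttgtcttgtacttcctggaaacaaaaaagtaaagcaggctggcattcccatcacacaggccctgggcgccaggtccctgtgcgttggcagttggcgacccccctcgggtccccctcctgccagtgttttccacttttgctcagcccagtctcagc
The Dag1 sequence held 3 GC boxes and had a G and C content of 67.6%. The sequence of the full-length Dmd start held 0 GC boxes and 1 AP-1 motif, and that of the downstream Dmd start 3 GC boxes, 2 of which overlap. The Sspn sequences held 1 AP-1 motif at the upstream start and none of either motif at the downstream start. Among 32851 promoters of the same length, 32.7% held a GC box and 6.75% an AP-1 motif. These matches describe letters and not binding.

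The genes differed widely in level. Levels per kb were divided by the union of exons over all annotated transcripts of a gene, so the order depends on that length. Per kb of exon, Dag1 was the most abundant, with a mean of 1248 normalized read counts per kb over the 6 libraries and a range of 457 to 1727. Utrn followed with a mean of 156 and a range of 124 to 179 per kb, at percentile 91.1 of the genes tested, then Dmd with a mean of 107 and a range of 85.6 to 121 per kb, at percentile 86.6. The ranges of Dag1, Utrn and Dmd did not overlap those of the next gene in the order. The mean levels per kb were 55.6 for Sgcb, 50.7 for Sgca, 49.7 for Sspn, 28.2 for Sgce and 22.4 for Sntb1, and the ranges of neighbours among these 5 genes overlapped. The range of Sntb1 did not overlap that of Sgcd. Sgcd was lowest, at a mean of 1.35 per kb and percentile 2.23. Within a library, Utrn exceeded Dmd per kb in all 6, from 1.02 times as high in mdx replicate 1 to 1.93 times as high in Sirt6mKO/mdx replicate 1. Before division by length, Dmd was above Utrn in mdx replicate 1 (2883 and 2118) and Sirt6mKO/mdx replicate 2 (2435 and 2428). Utrn was above Dmd in the other libraries. Sgce also had a higher mean than Sgca before division (299 and 88). Dag1 was 11.9 to 15.9 times as high as Dmd per kb in control and mdx, and 6.67 and 4.47 times in Sirt6mKO/mdx. Protein was not measured.

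**Figure D1:**
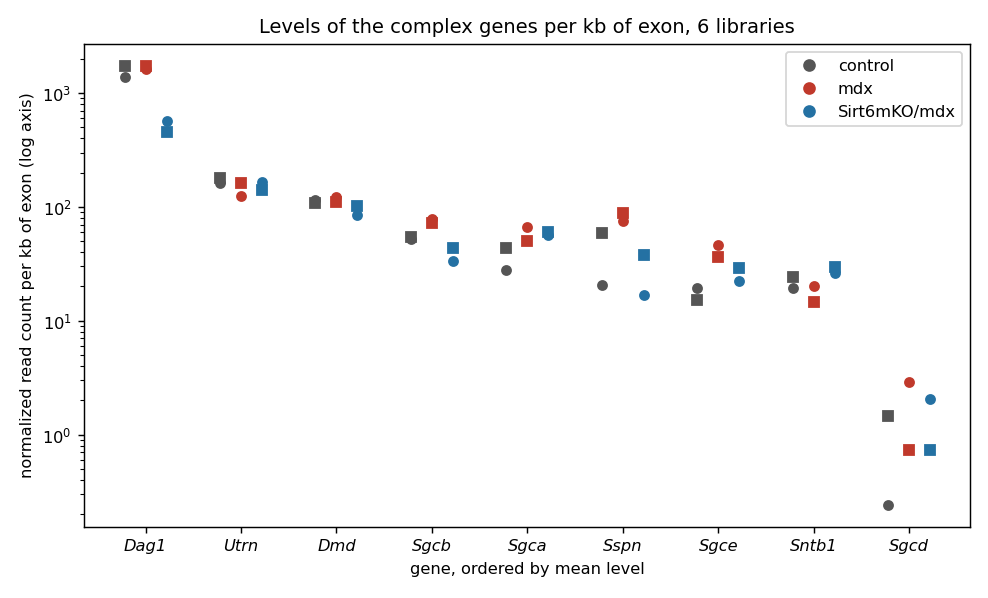
Normalized read count per kb of exon (log axis) of each gene in each library, with genes ordered by mean level from left to right; circles are replicate 1, squares replicate 2, and colours the groups. Dag1 lies on top at 457 to 1727 per kb, with its lowest values in the Sirt6mKO/mdx libraries, and Sgcd lies at the bottom at a mean of 1.35.

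In mdx against control, the transcripts of dystrophin, utrophin and dystroglycan did not differ beyond the spread between libraries, and the sarcoglycan Sgce was higher. In all, 1 of the 9 genes was called, against 14.2% of all genes tested. That gene was higher, against 6.89% of all genes called higher, and 0 of the 9 were called lower, against 7.34%, with 2 of the 9 at an unadjusted p under 0.05, against 31.0% of all genes. The values of the groups did not overlap for 4 of the 9 genes, all higher in mdx, against 57.0% of all genes without overlap in either direction. The median log2 fold change of the 9 genes was 0.49, that of all genes 0.001.

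In Sirt6mKO/mdx against mdx, Dag1 and Sspn were lower, by 3.29 and 3.24 times in the fit. Of the 9 genes these 2 were called, against 8.17% of all genes, and both were lower, against 2.54% of all genes called lower. Of the 9, 0 were called higher, against 5.62% of all genes, and 5 of the 9 had an unadjusted p under 0.05, against 25.2%. The groups did not overlap for 6 of the 9 genes, 5 lower and 1 higher, against 56.0% of all genes. In Sirt6mKO/mdx against control, 1 of the 9 genes was called, Dag1, which was lower. The background there was 7.87% in either direction, 2.68% lower and 5.19% higher, with 0 of the 9 called higher and 1 at an unadjusted p under 0.05, against 24.1% of all genes. Groups did not overlap for 6 of the 9 genes, 3 in each direction, against 51.6% of all genes. The median log2 fold changes of the 9 genes were -0.30 against mdx and -0.15 against control, beside 0.02 and 0.01 for all genes. Scaled to the same total instead, the median of all genes moved to -0.58 in both comparisons with Sirt6mKO/mdx, and 3411 and 3147 genes were called in place of 1300 and 1253. The shares that were higher went from 895 of 1300 to 479 of 3411 against mdx, and from 826 of 1253 to 455 of 3147 against control. The comparisons share libraries, so their values for a gene are not independent of each other.

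**Figure D2:**
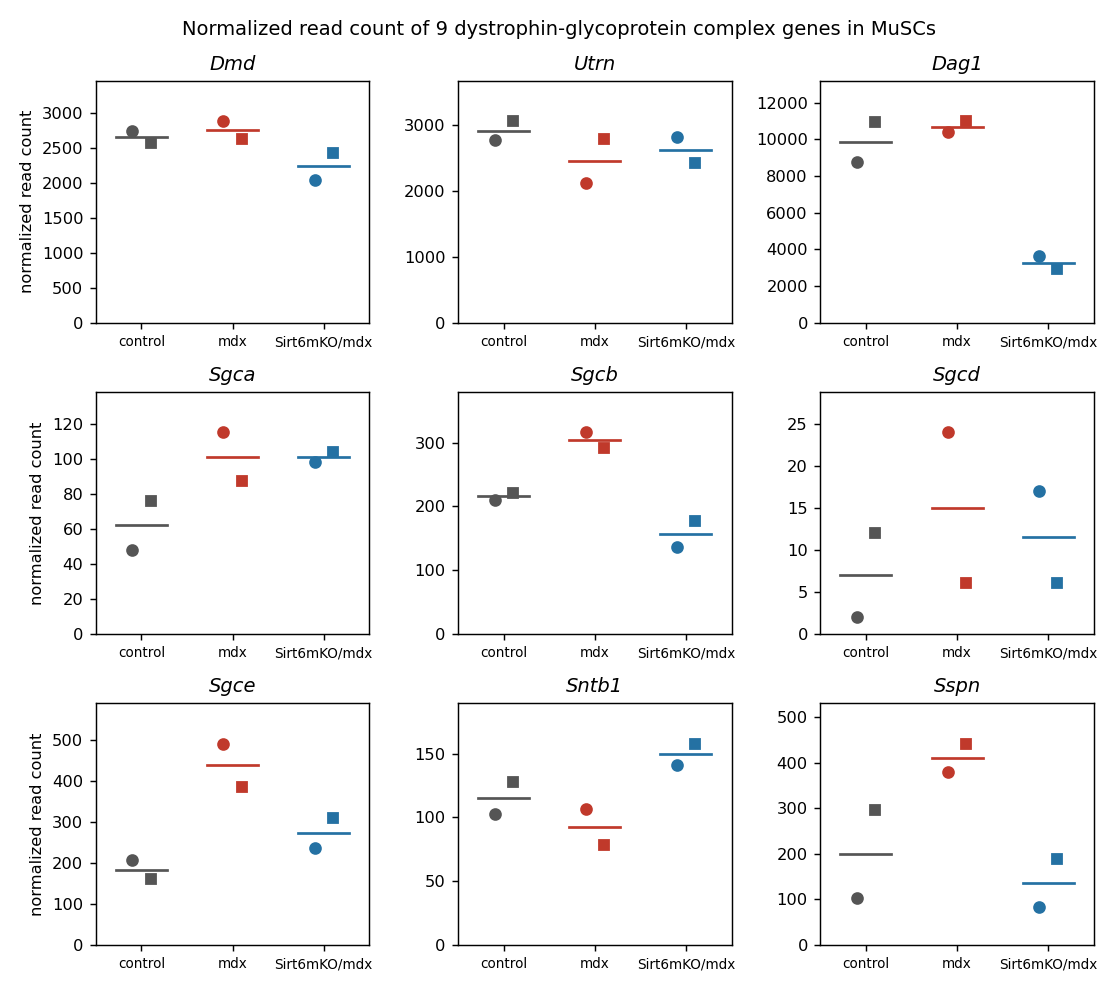
Normalized read count (vertical axis, starting at 0, its own range in each panel) of the 9 genes in control, mdx and Sirt6mKO/mdx MuSCs; circles are replicate 1, squares replicate 2 and lines group means. Dag1 falls from 10404 and 10977 in mdx to 3631 and 2908 in Sirt6mKO/mdx, Sgce is highest in mdx, and Dmd and Utrn keep to ranges of 2038 to 2883 and 2118 to 3059.

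Dmd (chrX:82948870-85206141, plus strand, ENSMUSG00000045103) had normalized read counts of 2743 and 2573 (control), 2883 and 2627 (mdx) and 2038 and 2435 (Sirt6mKO/mdx). Control and mdx overlapped, and the Sirt6mKO/mdx libraries were the lowest. The log2 fold change of mdx against control was 0.05 (SE 0.27, 95% interval -0.53 to 0.63, adjusted p = 0.922), so neither a decrease by more than 0.53 nor an increase by more than 0.63 lay within the interval. Against mdx, Sirt6mKO/mdx differed by -0.30 (-0.88 to 0.27, adjusted p = 0.524), and against control by -0.25 (-0.83 to 0.32, adjusted p = 0.619). With libraries scaled to the same total, where the median of all genes was also -0.58, these values were -0.93 (adjusted p = 0.0385) and -0.86 (adjusted p = 0.0571), and Dmd was not called in either. Dmd is X-linked, so the sex-linked RNA given above bears on its comparisons with control, and its part in them was not tested. Muscle fibres also transcribe Dmd. The summed value of 12 myofibre markers was 9321 and 12286 (control), 6962 and 2306 (mdx) and 14469 and 7091 (Sirt6mKO/mdx), a wider range than that of Dmd. In bulk samples such as these, fewer cells of a type and less RNA per cell cannot be told apart.

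Utrn (chr10:12382188-12861735, minus strand, ENSMUSG00000019820) stood at 2778 and 3059 (control), 2118 and 2796 (mdx) and 2826 and 2428 (Sirt6mKO/mdx). The groups overlapped throughout. On the log2 scale the fold change was -0.26 (SE 0.28, -0.86 to 0.34, adjusted p = 0.57) in mdx against control, 0.11 (-0.49 to 0.71, adjusted p = 0.857) in Sirt6mKO/mdx against mdx and -0.15 (-0.75 to 0.45, adjusted p = 0.792) against control. The value against mdx turned to -0.52 with libraries scaled to the same total, to -0.09 without mdx replicate 1 and to -0.003 without Sirt6mKO/mdx replicate 1. An increase of Utrn RNA in mdx above 0.34 on the log2 scale was outside the interval.

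Over the 6 libraries, the genes whose centred log2 values lay closest to those of Dmd, among 9666 genes with a mean of at least 50, included Plod3 and Pomgnt1, with root mean square differences of 0.0487 and 0.0532. For Utrn they were Ncoa6, Camsap2 and Rbm20, at 0.0513, 0.0609 and 0.0611. For Dag1, added after its values were seen, they were Col15a1, Nacc1 and Gstm2, at 0.151, 0.190 and 0.243. Col15a1, a collagen of the basement membrane zone, had 2592 and 4207 (control), 3226 and 3026 (mdx) and 1187 and 862 (Sirt6mKO/mdx).

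Dag1 (chr9:108205955-108263924, minus strand, ENSMUSG00000039952) encodes the precursor that is cleaved into α- and β-dystroglycan. It stood at 8736 and 10961 (control), 10404 and 10977 (mdx) and 3631 and 2908 (Sirt6mKO/mdx). Control and mdx overlapped, and both Sirt6mKO/mdx libraries lay far below all others. Group means were 9849 ± 1573 (SD, n = 2), 10691 ± 405 and 3270 ± 511. Its log2 fold change was 0.13 (SE 0.36, -0.64 to 0.89, adjusted p = 0.847) in mdx against control. It was -1.72 (SE 0.36, -2.48 to -0.95, adjusted p = 0.00865) in Sirt6mKO/mdx against mdx, and -1.59 (-2.36 to -0.82, adjusted p = 0.0135) against control. Both calls kept their direction under all 12 alternatives and their threshold under 7 of 12. Without mdx replicate 2, Sirt6mKO/mdx replicate 1 or Sirt6mKO/mdx replicate 2, the adjusted p against mdx was 0.0524, 0.14 and 0.169. Without control replicate 2 or either Sirt6mKO/mdx library, that against control was 0.08, 0.128 and 0.24. Over all alternatives the adjusted p was 0.00102 to 0.169 against mdx and 0.00101 to 0.24 against control. The summed value of 9 smooth muscle and pericyte markers was also lowest in Sirt6mKO/mdx, at 9723 and 9215 (control), 7862 and 9089 (mdx) and 4802 and 5088 (Sirt6mKO/mdx), with 0 of the 9 at 0 in 3 or more libraries. Notch3 made up most of that sum, at 7831 and 6184 (control), 4041 and 5382 (mdx) and 3049 and 2789 (Sirt6mKO/mdx). The other 8 markers, summed after the values were seen, gave 1892 and 3031 (control), 3821 and 3707 (mdx) and 1753 and 2299 (Sirt6mKO/mdx), with Acta2 highest among them at 807 to 2837. In Sirt6mKO/mdx against mdx 1 of the 9 was called lower and 0 higher, against 2.54% and 5.62% of all genes. Against control 2 of the 9 were called lower and 0 higher, beside 2.68% and 5.19% of all genes. The median log2 fold changes of the 9 markers were 0.02 against mdx and -0.53 against control. Schwann cell markers, 4 in the list, were also lowest in both Sirt6mKO/mdx libraries, summing to 536 and 849 (control), 1054 and 777 (mdx) and 437 and 500 (Sirt6mKO/mdx), nearly all of it from Pmp22. The part of either list in the Dag1 result was not tested. The share of the 10 most abundant genes was also highest in the Sirt6mKO/mdx libraries, as given above, and its part was not tested.

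Among the sarcoglycans, Sgce, which encodes ε-sarcoglycan, the form found outside muscle fibres as well, was called higher in mdx. Sgce (chr6:4674350-4747204, minus strand, ENSMUSG00000004631) stood at 207 and 161 (control), 492 and 387 (mdx) and 237 and 311 (Sirt6mKO/mdx). The groups did not overlap, with mdx highest and control lowest. The fitted log2 fold change was 1.25 (SE 0.27, 0.67 to 1.84, adjusted p = 0.00619) in mdx against control, that is 2.38 times. In Sirt6mKO/mdx it was -0.68 against mdx (-1.27 to -0.10, adjusted p = 0.135) and 0.57 against control (-0.01 to 1.15, adjusted p = 0.219), neither called. With libraries scaled to the same total, Sgce was called lower against mdx, at -1.31 (adjusted p = 0.00699), and stood at -0.03 against control (adjusted p = 0.953). The call in mdx held under 10 of 12 alternatives. It was lost without mdx replicate 1, at an adjusted p of 0.104, and the adjusted p ranged from 0.00315 to 0.104 over the alternatives. The summed value of 8 differentiation markers moved with Sgce, at 395 and 887 (control), 2778 and 2566 (mdx) and 1149 and 2517 (Sirt6mKO/mdx). Beside 6.89% higher and 7.34% lower among all genes, 4 of these 8 markers were called higher and 1 lower in mdx against control. Their highest members were Myog, which went from 124 and 281 (control) to 945 and 920 (mdx), and Cdkn1c, from 57 and 180 (control) to 1218 and 1072 (mdx). Markers of fibro-adipogenic cells, the mesenchymal progenitors of muscle, summed to 20852 and 27570 (control), 39050 and 31976 (mdx) and 21343 and 28825 (Sirt6mKO/mdx). Of these 8 markers, 2 were called higher in mdx than in control, against 6.89% of all genes. The part of either marker list in the Sgce result was not tested.

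Sgcb (chr5:73632749-73647713, minus strand, ENSMUSG00000029156), which encodes β-sarcoglycan, stood at 210 and 221 (control), 316 and 292 (mdx) and 136 and 177 (Sirt6mKO/mdx). The groups did not overlap, with mdx highest and Sirt6mKO/mdx lowest. The difference on the log2 scale was 0.49 (-0.08 to 1.07, adjusted p = 0.235) in mdx against control and -0.47 (-1.05 to 0.11, adjusted p = 0.311) in Sirt6mKO/mdx against control. Against mdx it was -0.96 (SE 0.27, -1.54 to -0.39, adjusted p = 0.0385), which passed the p threshold and missed the minimum fold. With libraries scaled to the same total, Sgcb was called lower in Sirt6mKO/mdx, at -1.59 against mdx (adjusted p = 0.00332) and -1.07 against control (adjusted p = 0.025).

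Sgca (chr11:94962791-94976327, minus strand, ENSMUSG00000001508), which encodes α-sarcoglycan of striated muscle, stood at 48 and 76 (control), 115 and 87 (mdx) and 98 and 104 (Sirt6mKO/mdx). Both control libraries were below all others, and mdx and Sirt6mKO/mdx overlapped. On the log2 scale the fold change was 0.72 (-0.08 to 1.52, adjusted p = 0.21) in mdx and 0.73 (-0.07 to 1.53, adjusted p = 0.251) in Sirt6mKO/mdx against control, and 0.01 (-0.79 to 0.81, adjusted p = 0.988) between them, which turned to -0.61 with libraries scaled to the same total, to -0.19 without mdx replicate 2 and to -0.03 without Sirt6mKO/mdx replicate 2. Sgcd (chr11:46896253-47988969, minus strand, ENSMUSG00000020354), which encodes δ-sarcoglycan, was near the limit of detection, at 2 and 12 (control), 24 and 6 (mdx) and 17 and 6 (Sirt6mKO/mdx). These correspond to about 1 and 16, 37 and 8, and 11 and 3 reads. Its interval in mdx against control ran from -1.04 to 3.21 and covered 0.

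Sspn (chr6:145931641-145965223, plus strand, ENSMUSG00000030255), which encodes the membrane-spanning protein sarcospan, stood at 103 and 295 (control), 379 and 442 (mdx) and 84 and 188 (Sirt6mKO/mdx). Both mdx libraries lay above all others, and control and Sirt6mKO/mdx overlapped. Its log2 fold change was 1.23 (SE 0.44, 0.30 to 2.16, adjusted p = 0.0684) in mdx against control, which was not called. It was -1.69 (SE 0.44, -2.63 to -0.76, adjusted p = 0.0262) in Sirt6mKO/mdx against mdx, which was called, and -0.47 (-1.40 to 0.46, adjusted p = 0.559) against control. The call held under 5 of 12 alternatives. It was lost without any of mdx replicate 1, mdx replicate 2, Sirt6mKO/mdx replicate 1 and Sirt6mKO/mdx replicate 2, at adjusted p of 0.156, 0.197, 0.347 and 0.067, and with a variance prior robust to outlying genes, at 0.109. Over the alternatives the adjusted p ran from 0.00126 to 0.347, and the direction was kept. Without control replicate 2, the log2 fold change of mdx against control was 1.98 (adjusted p = 0.0123), and without control replicate 1 it was 0.47 (adjusted p = 0.531). The summed fibro-adipogenic markers, the summed differentiation markers and the summed smooth muscle and pericyte markers other than Notch3, all given above, were likewise highest in both mdx libraries. In Sirt6mKO/mdx against mdx 1 of 8, 0 of 8 and, with Notch3 included, 1 of 9 of these markers were called lower, against 2.54% of all genes. The part of these markers in the Sspn result was not tested. Of the exon bases of Sspn, 69 (1.38%) are shared with the antisense gene Sspnos, and whether counting used strand was not given in the sources used here. The exons of the other 8 genes share none with another annotated gene.

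Sntb1 (chr15:55638843-55906949, minus strand, ENSMUSG00000060429), which encodes β1-syntrophin, stood at 103 and 128 (control), 107 and 78 (mdx) and 141 and 158 (Sirt6mKO/mdx). Control and mdx overlapped, and both Sirt6mKO/mdx libraries were above all others. The fitted log2 fold change was -0.33 (-1.02 to 0.37, adjusted p = 0.538) in mdx against control, 0.70 (0.00 to 1.40, adjusted p = 0.196) in Sirt6mKO/mdx against mdx, and 0.38 (-0.32 to 1.07, adjusted p = 0.528) against control. With libraries scaled to the same total, the value against mdx was 0.08 (adjusted p = 0.898) and that against control turned to -0.23.

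**Figure D3:**
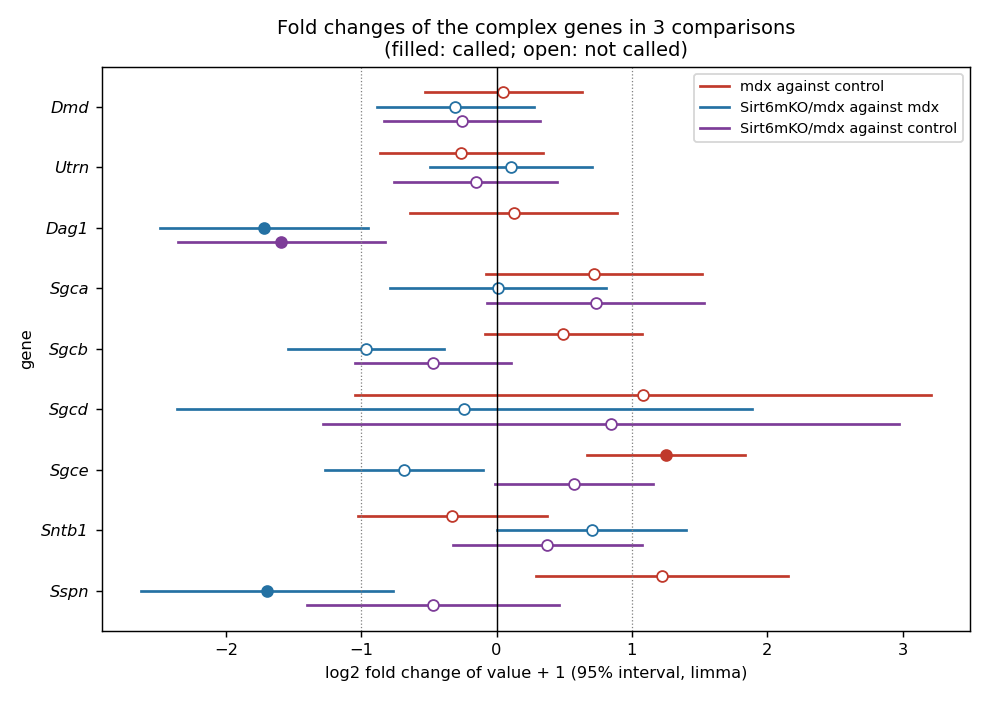
Log2 fold change of value + 1 (horizontal axis) of each gene (vertical axis) in the 3 comparisons, with 95% intervals from limma as lines; filled points were called, open points were not, and dotted lines mark the minimum fold. The filled points are Sgce at 1.25 in mdx against control, Dag1 at -1.72 and Sspn at -1.69 in Sirt6mKO/mdx against mdx, and Dag1 at -1.59 in Sirt6mKO/mdx against control.

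For the 5 lists of other genes that follow, the background in mdx against control was 6.89% of all genes higher and 7.34% lower by the same rule, that in Sirt6mKO/mdx against mdx 5.62% higher and 2.54% lower, and that against control 5.19% higher and 2.68% lower. With 7 to 17 genes tested in a list, counts of 0 to 2 are descriptions and nothing particular to a list is read from them. Of the other subunits of the complex, 9 genes were listed and 7 tested. The mdx against control comparison called 0 in either direction, that of Sirt6mKO/mdx with mdx 1 higher and 0 lower, and that with control 0, with median log2 fold changes of 0.06, 0.48 and 0.66. Dtnb, which encodes β-dystrobrevin, stood at 304 and 148 (control), 206 and 147 (mdx) and 430 and 346 (Sirt6mKO/mdx), and was called higher against mdx at 1.14 (0.43 to 1.86, adjusted p = 0.0449). That call was lost when any mdx or Sirt6mKO/mdx library was left out and held under 4 of 12 alternatives. The subunit with the highest mean was Sntb2, β2-syntrophin, at 252 and 378 (control), 277 and 655 (mdx) and 587 and 404 (Sirt6mKO/mdx).

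The enzymes that build the laminin-binding sugar chains of α-dystroglycan formed a list of 17 genes, all tested. In mdx against control 0 were called higher and 1 lower, in Sirt6mKO/mdx against mdx 1 higher and 0 lower, and against control 0, with medians of 0.03, -0.14 and -0.10. Dpm1, the catalytic subunit of dolichol phosphate mannose synthase, stood at 175 and 120 (control), 22 and 41 (mdx) and 87 and 101 (Sirt6mKO/mdx). Its log2 fold change was -2.23 in mdx against control (-3.11 to -1.35, adjusted p = 0.00198), held under 11 of 12 alternatives, and 1.61 in Sirt6mKO/mdx against mdx (0.73 to 2.49, adjusted p = 0.0253), held under 6 of 12 and lost without mdx replicate 1 or either Sirt6mKO/mdx library. Large, whose product extends the chain that laminin binds, had the highest mean, at 379 and 261 (control), 269 and 384 (mdx) and 289 and 365 (Sirt6mKO/mdx).

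Of 8 genes for extracellular ligands of dystroglycan and the sarcoglycans, 7 were tested. In mdx against control 1 was called higher and 0 lower, in Sirt6mKO/mdx against mdx 0 higher and 2 lower, and against control 1 in each direction, with medians of -0.04, -0.47 and -0.79. Lama2, the laminin α2 chain of the muscle basal lamina, stood at 6799 and 7643 (control), 6856 and 7166 (mdx) and 3191 and 3174 (Sirt6mKO/mdx). It was lower in Sirt6mKO/mdx, with log2 fold changes of -1.14 against mdx (-1.83 to -0.45, adjusted p = 0.0408) and -1.18 against control (-1.87 to -0.49, adjusted p = 0.0343). Both calls held under 6 of 12 alternatives, and each was lost without any library of its groups. Bgn, the proteoglycan biglycan, which binds dystroglycan and sarcoglycans, stood at 1292 and 2111 (control), 3255 and 3676 (mdx) and 751 and 1216 (Sirt6mKO/mdx). It was higher in mdx than in control, at 1.07 on the log2 scale (0.41 to 1.72, adjusted p = 0.0282), a call lost without control replicate 1 or either mdx library. In Sirt6mKO/mdx it was lower than in mdx, at -1.85 (-2.51 to -1.20, adjusted p = 0.00181), a call held under 9 of 12 alternatives and lost without Sirt6mKO/mdx replicate 1. Like Bgn, the marker sums named with Sspn were highest in both mdx libraries, and their part in the Bgn result was not tested. Lama5, the laminin α5 chain, stood at 517 and 350 (control), 567 and 969 (mdx) and 969 and 1003 (Sirt6mKO/mdx). The laminin α5 chain transcript was higher in Sirt6mKO/mdx than in control, at 1.21 (0.59 to 1.83, adjusted p = 0.0178), a call lost without control replicate 2 or either Sirt6mKO/mdx library. Hspg2, perlecan, had the highest mean, at 10285 and 10376 (control), 4807 and 8420 (mdx) and 5011 and 4230 (Sirt6mKO/mdx).

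Of 12 genes for cytoplasmic partners, 10 were tested, and 0 were called in mdx against control, 1 higher in Sirt6mKO/mdx against mdx and 0 against control, with medians of -0.19, 0.22 and -0.08. Mark2, the polarity kinase, stood at 446 and 377 (control), 198 and 322 (mdx) and 500 and 519 (Sirt6mKO/mdx). Its log2 fold change against mdx was 1.01 (0.43 to 1.59, adjusted p = 0.0334), a call lost without mdx replicate 1 or either Sirt6mKO/mdx library. Des, the intermediate filament desmin, had the highest mean, at 3495 and 2987 (control), 3016 and 3208 (mdx) and 4177 and 4941 (Sirt6mKO/mdx).

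Of 10 regulators known to act on Utrn, all tested, the mdx against control comparison called 0 higher and 2 lower, that of Sirt6mKO/mdx with mdx 2 higher and 0 lower, and that with control 1 lower, with medians of -0.27, -0.27 and -0.26. Ets2, an activator of the Utrn promoter, stood at 731 and 907 (control), 96 and 103 (mdx) and 237 and 300 (Sirt6mKO/mdx). The log2 fold change of Ets2 was -3.02 in mdx against control (-3.58 to -2.46, adjusted p = 2.44e-06), 1.41 in Sirt6mKO/mdx against mdx (0.85 to 1.97, adjusted p = 0.00406) and -1.61 against control (-2.17 to -1.05, adjusted p = 0.00145). Erf, a repressor of the Utrn promoter, stood at 926 and 570 (control), 138 and 159 (mdx) and 925 and 1037 (Sirt6mKO/mdx). The log2 fold change of Erf was -2.29 in mdx against control (-2.86 to -1.71, adjusted p = 4.82e-05) and 2.72 in Sirt6mKO/mdx against mdx (2.14 to 3.29, adjusted p = 2.2e-05). The calls of both genes in mdx against control held under all 12 alternatives, and that of Ets2 against mdx was lost without Sirt6mKO/mdx replicate 2. An activator and a repressor were both lower in mdx, and Utrn itself was not called. The part of Ets2 and Erf in the Utrn values was not tested. With libraries scaled to the same total, the calls of Dtnb, Dpm1, Mark2 and Ets2 as higher in Sirt6mKO/mdx than in mdx were lost, as was that of Lama5 as higher than in control. Sp1 had the highest mean of the regulators, at 1228 and 1695 (control), 1195 and 924 (mdx) and 766 and 804 (Sirt6mKO/mdx).

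**Figure D4:**
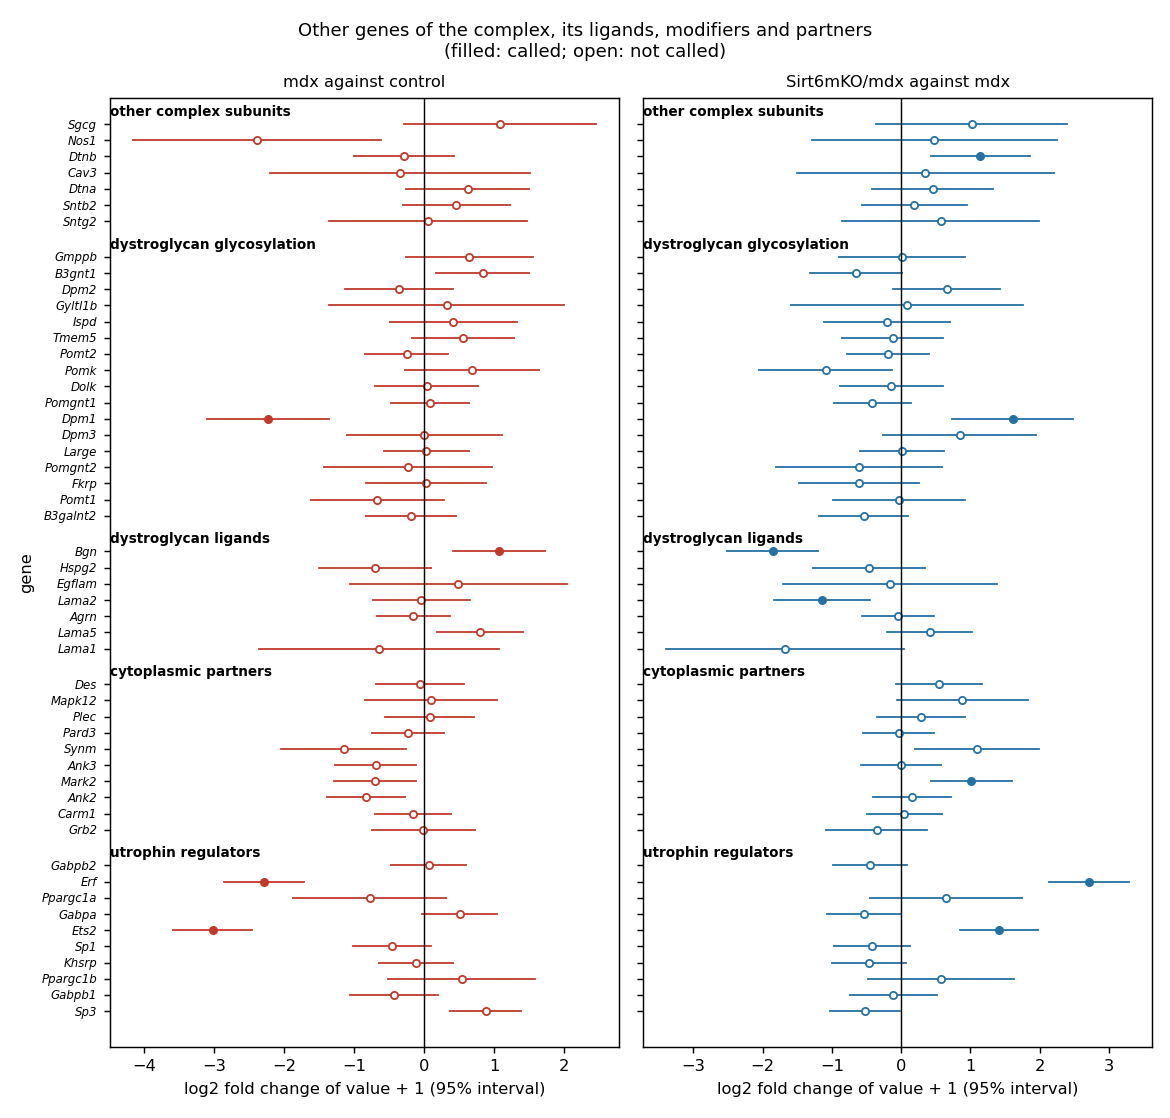
Log2 fold change of value + 1 (horizontal axes) with 95% intervals of the tested genes of the 5 other lists (vertical axis) in mdx against control on the left and Sirt6mKO/mdx against mdx on the right; filled points were called and open points were not. The widest filled departures are Ets2 at -3.02, Erf at -2.29 and Dpm1 at -2.23 on the left, and Erf at 2.72 and Bgn at -1.85 on the right.

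The labelled cell type was present in every library by its markers, with 10 MuSC markers summing to 22929 and 23977 (control), 22717 and 18968 (mdx) and 17807 and 20222 (Sirt6mKO/mdx). Their highest members were Vcam1 and Sdc4. Vcam1 stood at 3730 and 3697 (control), 7031 and 5753 (mdx) and 2413 and 4302 (Sirt6mKO/mdx). Sdc4 stood at 7692 and 6224 (control), 1100 and 1049 (mdx) and 2753 and 2822 (Sirt6mKO/mdx). In mdx against control 2 of the 10 were called lower and 0 higher, against 7.34% and 6.89% of all genes. In Sirt6mKO/mdx it was 0 lower and 1 higher against mdx, where all genes gave 2.54% and 5.62%. Against control 2 were lower and 0 higher, where all genes gave 2.68% and 5.19%. Markers of fibro-adipogenic cells summed to 20852 to 39050, although the methods of the study describe a removal of Sca1+, CD45+ and CD31+ cells with magnetic beads before the sort, and were led by Col3a1 at 15579 to 30817 and Dpt at 2024 to 3504. The 12 myofibre markers were led by Acta1 at 421 to 3105 and Atp2a1 at 590 to 1757. Of these 12, 5 were called lower in mdx than in control, against 7.34% of all genes. In Sirt6mKO/mdx against mdx, 5 were called higher, against 5.62% of all genes. Smooth muscle and pericyte markers summed to 4802 to 9723, as given with Dag1. Endothelial markers summed to 408 to 916, led by Tek and Pecam1, with Emcn and Cldn5 under a mean of 5 and Cldn5 at 0 in 3 libraries. Schwann cell markers summed to 437 to 1054, of which Pmp22, not particular to Schwann cells, gave 418 to 1047 and Sox10 1 to 11, and S100b and Ncmap had means under 5. Leukocyte markers summed to 78 to 185, led by Cd68 and Lyz2, and erythroid markers to 7 to 91, led by Alas2 and Hbb-bs, with Hba-a1, Hba-a2 and Hbb-bt under a mean of 5 and the last pair at 0 in 3 libraries each.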

How the data were processed

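MuSC RNA had been depleted of ribosomal RNA and sequenced on an Ion Torrent platform. The authors trimmed the reads, aligned them with STAR (2.4.2a in the submitters' processing notes, which name mm10 and GRCm38.p5), counted reads per gene with featureCounts 1.4.5-p1, leaving out reads on several genes or places, and scaled them with DESeq2 1.6.0. The deposited values are normalized read counts rounded to whole numbers, held here as scores and not as raw counts, so no count test was run on them. Size factors recovered from gaps in the whole numbers were 0.537 to 1.53, and multiplying by them gave approximate reads.

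From these, log2(value + 1) of all 6 libraries was fitted with limma 3.58.1 (R 4.3.3, trend, no replicate block) over 15915 genes with a mean of at least 5. Genes with an adjusted p of at most 0.05 and a log2 fold change of at least 1 were called, the thresholds of the study. The 12 alternatives for each comparison changed the pseudocount, filter, scaling, prior variance or weights, added a block, or left out a library. With 2 libraries per group, p-values rest only on the spread between these libraries, which limma draws towards that of genes at a similar level. Fold changes on this scale understate those of low genes. Exon lengths, the union of exons over all transcripts of a gene, came from GENCODE M21, which held 98.53% of the gene identifiers. Coordinates of genes are those of the table.

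The members and gene lists were chosen with earlier results of these data known, and some genes are not reported here. All 9 genes are given with every value, and of the other lists each called gene and that with the highest mean. For Dmd and Utrn the 3 genes nearest in pattern are given, apart from any not reported here, and of each marker list the 2 highest and those with a mean under 5. Figures were drawn with matplotlib 3.10.9.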

Additional observations from a re-analysis of the deposited data

How the results depend on the processing

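Of the calls among the 9 genes, that of Sgce in mdx held most often. With no minimum mean, 989 genes were called in mdx against control, 168 in Sirt6mKO/mdx against mdx and 221 against control, and of the 9 genes 0 were called in either comparison with Sirt6mKO/mdx. With the same prior variance for all genes the numbers were 541, 0 and 87, with 0 of the 9 in each comparison. Scaling to the same total gave 3411 and 3147 genes in the comparisons of Sirt6mKO/mdx with mdx and control, and 4 and 2 of the 9 (Dag1, Sspn, Sgcb and Sgce, and Dag1 and Sgcb), while the log2 fold change turned negative for Utrn (-0.52) and Sgca (-0.61) against mdx and for Sgce (-0.032) and Sntb1 (-0.23) against control. The median of all genes moved to -0.58 under that scaling. A robust prior left 1 of the 9 called against mdx. The cause was not tested for the variance priors or for the minimum mean. Without that minimum, more genes enter both the adjustment and the fit of the prior variance.

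Leaving out each library in turn, where the lone library of a group is assumed to vary like the others, gave 939 to 2356 called genes in mdx against control, 203 to 1475 in Sirt6mKO/mdx against mdx and 213 to 1314 against control, and 0 to 2, 0 to 2 and 0 to 1 of the 9. Values not called that changed sign ranged from -0.016 to 0.118 for Dmd and -0.037 to 0.291 for Dag1 in mdx against control, -0.094 to 0.306 for Utrn, -0.186 to 0.212 for Sgca and -1.16 to 0.68 for Sgcd in Sirt6mKO/mdx against mdx, and -0.21 to 1.90 for Sgcd and -1.22 to 0.28 for Sspn against control.

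Batch is not in the labels, so whether replicate numbers pair the libraries is not known. Deviations of same-numbered libraries from their group means correlated at -0.128, 0.119 and 0.009 over 15915 genes. With 2 libraries per group, these values cannot exclude pairing. With a replicate block, 2415, 1510 and 1404 genes were called in the 3 comparisons, and 2 of the 9 genes in place of 1 in mdx against control, Sspn being added at an adjusted p of 0.0104. Sgcd had only about 1 to 37 reads per library.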
